A study of Danio rerio with 4 samples.

Results

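The cells described here are the cd4-1-positive, mpeg1.1-positive cells of zebrafish skin, which earlier work on these data labelled Langerhans-like. A cell was a member when it had 500 to 30000 UMIs, 200 to 4500 genes and less than 25% mitochondrial UMIs, at least 1 UMI of mpeg1.1, at least 2 further genes of c1qa, c1qb, c1qc, csf1ra, csf1rb, mfap4 and slc7a7, at least 1 UMI of cd4-1, and no UMI of the T cell kinases lck and zap70. These limits selected 193 of 29185 kept cells: 79 of 5802 in unwounded skin, 47 of 7754 at 2 days post wounding (dpw), 48 of 7315 at 4 dpw and 19 of 8314 at 6 dpw. The comparison cells were the 2252 cells of the same macrophage gate in which cd4-1 was at 0 (141, 1283, 588 and 240), here called cd4-1-zero cells.

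All fish were adult wild type, and each of the 4 libraries pooled the cells of 3 fish. Unwounded skin was untreated and was scraped off, whereas wounds (of 2 mm in diameter per the labels) were taken out with a 4 mm biopsy punch, so wounding and the way of sampling cannot be told apart. Each condition is 1 library, and therefore no test between conditions was run. The libraries held 7320 to 10329 called cells, with a median of 3979 to 4190 UMIs per kept cell. Members were deeper, at a median of 10525, 10619, 10459.5 and 7290 UMIs from unwounded skin to 6 dpw, and cd4-1-zero cells had 9953, 11747, 9063.5 and 7303.5. Doublets were not removed. Pairs of libraries shared 17 to 27 called barcodes, no barcode was a member in 2 libraries, and 2 member barcodes were also kept cells of another library. Intervals in brackets are exact 95% intervals that cover counting error only, and PCR and sampling of fish are outside them. CPM is the summed UMIs of a gene per 1000000 summed UMIs of the cells named.

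Langerhans cells are the antigen-presenting myeloid cells of the mammalian epidermis. They take up material, cut it into peptides with lysosomal cathepsins, and load the peptides onto MHC class II molecules, which the invariant chain CD74 escorts through the cell. In zebrafish, mpeg1.1 (a pore-forming protein of phagocytes) marks macrophages and related skin cells, and cd4-1, the coreceptor of helper T cells, is also carried by a part of the mononuclear phagocytes.

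Members were chosen by their UMIs of cd4-1, mpeg1.1, the further macrophage genes, lck and zap70, so these genes are given as description only. The level of cd4-1 in members was 252, 171, 119 and 221 CPM (unwounded, 2, 4 and 6 dpw, the order kept below), and 109 of the 193 members (56.5%) held a single cd4-1 UMI, 35 held 2, 21 held 3, 10 held 4 and 18 held 5 or more. The threshold thus passed through the most frequent class of members. mpeg1.1 stood at 2161, 1809.7, 1506 and 1980.1 CPM in members and at 1186, 624, 753 and 944 CPM in cd4-1-zero cells. Of the further macrophage genes, 2 members had all 7, 103 had 6, 70 had 5, 16 had 4 and 2 had 3. Just outside the rule lay 11 cells with cd4-1 and mpeg1.1 but with lck or zap70, 7 cells with mpeg1.1 at 0, 1 cell with 1 of the further genes and 1 cell with none of them. After thinning to 1000 UMIs, cd4-1 was found in 26.6%, 23.4%, 18.8% and 26.3% of members, in 6.06%, 3.87%, 5.33% and 4.72% of T cell gate cells (median 2483, 2478, 2704 and 2281.5 UMIs before thinning), and in 0.344%, 0.230%, 0.0537% and 0% of keratinocyte gate cells (median 8642.5, 5443, 6873 and 8295 UMIs), which stand for free RNA. A keratinocyte gate cell had epcam, at least 2 of 6 keratin and claudin genes and none of mpeg1.1, lck and zap70. Members were selected for a cd4-1 UMI and the cells of these gates were not, so the gap between their shares was set by the rule. How many members with a single cd4-1 UMI got it from free RNA was not tested.

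Members were most frequent in unwounded skin. They made up 1.36% (1.08 to 1.69) of kept cells in unwounded skin, 0.606% (0.446 to 0.805) at 2 dpw, 0.656% (0.484 to 0.869) at 4 dpw and 0.229% (0.138 to 0.357) at 6 dpw. The share relative to unwounded skin was 0.445 (0.303 to 0.647) at 2 dpw, 0.482 (0.329 to 0.699) at 4 dpw and 0.168 (0.0960 to 0.280) at 6 dpw. The shares at 2 and 4 dpw lay within each other's intervals, and those of unwounded skin and 6 dpw lay outside all others. Within the macrophage gate, members were 35.9% (29.6 to 42.6) of the cells in unwounded skin, 3.53% (2.61 to 4.67) at 2 dpw, 7.55% (5.62 to 9.88) at 4 dpw and 7.34% (4.47 to 11.2) at 6 dpw. The gate itself held 220 cells in unwounded skin and 1330, 636 and 259 at 2, 4 and 6 dpw. This second share depends on the number of cd4-1-zero cells as well as on that of members. The gate was of similar size in unwounded skin and at 6 dpw, where the share was 35.9% and 7.34%. With a minimum of 2 cd4-1 UMIs, 48, 19, 9 and 8 members were left, and the share relative to unwounded skin was 0.296, 0.149 and 0.116 at 2, 4 and 6 dpw.

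**Figure D1:**
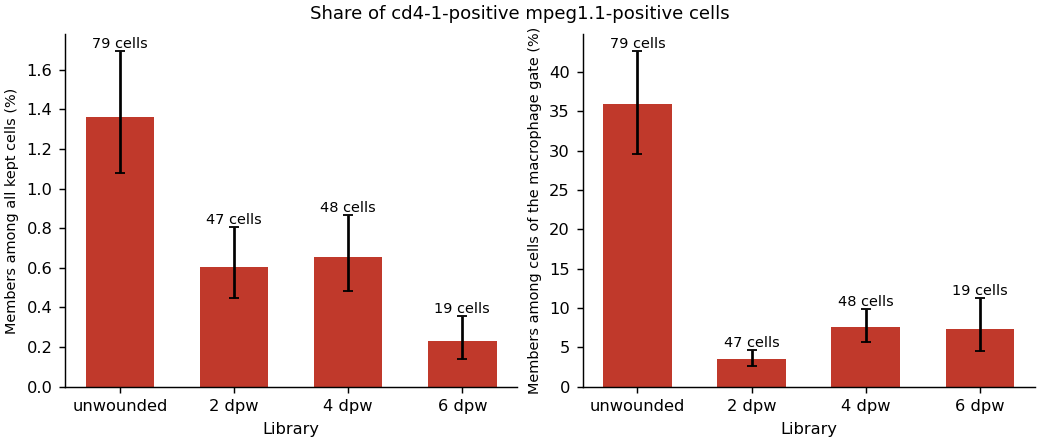
Bars show the share of cd4-1-positive mpeg1.1-positive cells (members) in each library, in percent of all kept cells (left) and of the cells of the macrophage gate (right), with exact 95% intervals for counting error and the number of members above each bar. Unwounded skin stands highest in both panels, at 1.36% and 35.9%, and 6 dpw is lowest among kept cells, at 0.229%.

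si:dkey-30j10.5, the only gene of the Langerhans label that the rule did not use, was higher in members than in cd4-1-zero cells of every library. The label came from earlier work on these same data, so this gene is not independent support for it. It stood at 4179, 4783, 2299.7 and 2883 CPM in members, against 2362, 399, 517 and 705 CPM in cd4-1-zero cells. The lowest member value was close to the highest cd4-1-zero value, that of unwounded skin, while within each library members were 1.77-fold (1.69 to 1.85) higher in unwounded skin and most apart at 2 dpw, with an interval of 11.5- to 12.6-fold. Over the 4 libraries, edgeR's quasi-likelihood test on summed UMIs with the library as a block, with Benjamini-Hochberg adjustment over all genes tested (n = 4 pairs), gave log2 fold change 2.12, SE 0.38, adjusted p = 0.0297. Leaving out 4 dpw or 6 dpw took the adjusted p to 0.0599 and 0.0867 in the same edgeR test, with log2 fold changes of 2.12 and 2.17. Without the library block it was 1.81 with an adjusted p of 0.205, and without cells holding a UMI of the T cell markers tested for exclusion, cd8a among them, it was 1.37 with an adjusted p of 0.609. That exclusion left 36, 31, 31 and 7 members. With cd8a not counted among the markers, an alternative chosen after seeing the data, 77, 46, 46 and 19 members were left. There the gene still passed the edgeR test.

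Not every member carried this gene. After thinning to 1000 UMIs it was found in 63.3%, 61.7%, 43.8% and 57.9% of members, in 32.6%, 10.4%, 12.6% and 15.0% of cd4-1-zero cells, and in 0.310%, 0.415%, 0.215% and 0.0281% of keratinocyte gate cells. Without thinning, 132 of 193 members (68.4%, 61.3 to 74.9) had at least 1 UMI, among them 60 of 79 in unwounded skin, 35 of 47 at 2 dpw, 26 of 48 at 4 dpw and 11 of 19 at 6 dpw. The label's marker thus covered about 2 of 3 members. The mammalian dendritic cell genes flt3, batf3, irf4a, xcr1a.1 and ccr7 (a cytokine receptor, transcription factors and chemokine receptors) had 0 UMIs in the members of all 4 libraries, while other genes of that list were found, among them relb, an NF-kappa B subunit, with 172, 108, 91 and 21 UMIs, cd83, a surface protein of mature dendritic cells, with 174, 78, 55 and 33, cd40, a costimulatory receptor, with 34, 16, 17 and 4, and the dendritic cell factor zbtb46 with 7, 2, 3 and 1. In cd4-1-zero cells ccr7 was not found in any library either, and batf3, irf4a and xcr1a.1 were not found in unwounded skin, while flt3 was found. epcam, an adhesion molecule of mouse Langerhans cells and of keratinocytes, was 145, 20.5, 128 and 147 CPM in members and 312, 158, 145 and 244 CPM in cd4-1-zero cells, and did not pass the edgeR test (log2 fold change -1.13, SE 0.35, adjusted p = 0.126). Since si:dkey-30j10.5 did not cover all members, the cells are named below by the rule and not by a cell type.

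Across all genes, 105 of 5870 tested (1.79%) were higher in members than in cd4-1-zero cells and 85 (1.45%) were lower, at an adjusted p below 0.05 in the edgeR test, and 1198 had an unadjusted p below 0.05. The genes of the rule were left out of these counts, and the median log2 fold change of all genes was -0.03. Of the 190 genes, 188 had the same direction in all 4 libraries (104 higher and 84 lower). The counts rested on few pairs: without the unwounded, 2, 4 or 6 dpw library, 27, 21, 47 and 3 genes were higher and 13, 15, 77 and 15 were lower, and without the library block 1 was higher (slc15a2) and 1 lower (sb:cb1058). Among only the cells with si:dkey-30j10.5, an alternative chosen after seeing the data, 2 were higher (mhc2b and sftpbb) and 7 lower (krt97, aqp3a, fabp11a, paics, stx11a, sik1 and tcnbb).

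Antigen presentation genes were the list with the most calls. Of 13 tested genes of MHC class II and antigen processing, 7 were higher in members, none was lower and 6 did not pass the test. Over all genes 105 of 5870 (1.79%) were higher and 85 (1.45%) lower. The list's median log2 fold change was 0.68 against -0.03 over all genes. cd74a, an invariant chain gene, stood at 18960.5, 10438, 12475 and 24865 CPM in members and at 12701, 2028, 6037 and 10998 CPM in cd4-1-zero cells (log2 fold change 1.26, SE 0.25, adjusted p = 0.0381, edgeR). The gap was smallest in unwounded skin, at 1.49-fold (1.46 to 1.52), and widest at 2 dpw, at 5.15-fold (5.00 to 5.29). The second invariant chain gene, cd74b, was 8254, 5036, 5267 and 10034 against 5562, 1271, 2915 and 4549.8 CPM (1.11, SE 0.20, adjusted p = 0.031). mhc2b, a class II beta chain, was 1448, 488, 468 and 1070.3 against 688, 78.8, 129 and 451 CPM (1.67, SE 0.24, adjusted p = 0.0233), and it was 1.94- to 2.29-fold (95% interval) higher in unwounded skin and 6.19-fold (5.39 to 7.08) higher at 2 dpw. Members were above cd4-1-zero cells in each library for these 3 genes, but the groups overlapped across libraries. The makeup of the cd4-1-zero cells also differed by library: 41.8%, 18.5%, 16.7% and 22.9% of them had si:dkey-30j10.5. Its part in the size of the gaps was not tested.

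The class II chain genes mhc2a and mhc2dab followed, with log2 fold changes of 1.13 (SE 0.21, adjusted p = 0.0309) and 1.32 (SE 0.21, adjusted p = 0.0246) in the edgeR test. Class II genes are near copies of each other, so reads may have been divided among them. ifi30, a lysosomal reductase that opens disulfide bonds of antigens, was 1939.8, 1439, 1647 and 2923 CPM in members and 1502, 932, 804 and 1282 CPM in cd4-1-zero cells (log2 fold change 0.78, SE 0.13, adjusted p = 0.0285). ctsba, the lysosomal protease cathepsin B, was 10189, 9942, 7780.4 and 8061 against 7823, 5687, 4785 and 5362 CPM (0.59, SE 0.08, adjusted p = 0.0165), and here all 4 member values except that of 4 dpw were above every cd4-1-zero value. The other proteases did not pass: the cathepsin S genes ctss2.1 and ctss2.2, cathepsins ctsd, ctsla and ctsh, and legumain (lgmn) had adjusted p-values from 0.0529 to 0.787. None of the 7 genes passed without the 6 dpw library, which held 19 members.

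**Figure D2:**
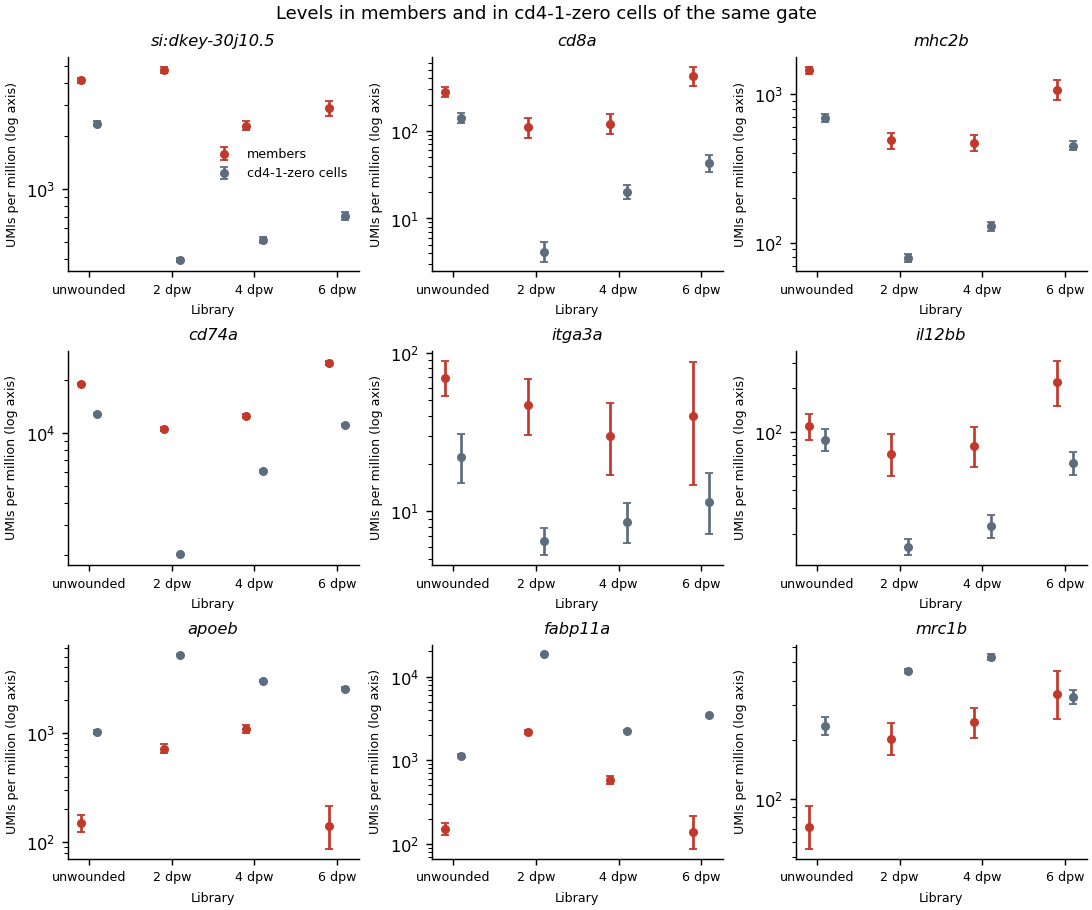
Points are CPM (UMIs per 1000000, log axis) of 9 genes in members (red) and cd4-1-zero cells (blue-grey) of each library, with exact 95% Poisson intervals. Members lie above in all 4 libraries for si:dkey-30j10.5, cd8a, mhc2b, cd74a, itga3a and il12bb and below for apoeb and fabp11a, while mrc1b is below in 3 libraries and 341 against 331 CPM at 6 dpw.

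The gene with the largest increase was cd8a, a chain of the coreceptor of cytotoxic T cells. It was at 278, 109.8, 121 and 421 CPM in members and 141, 4.18, 20.3 and 42.9 CPM in cd4-1-zero cells (log2 fold change 2.76, SE 0.53, adjusted p = 0.0364, edgeR), and at 277, 155, 185 and 180 CPM in T cell gate cells. Members thus held as much cd8a as T cells in unwounded skin and more at 6 dpw. The rule set lck and zap70 to 0. Of the other T cell markers, cd247, cd247l and tcf7, which serve T cell receptor signalling and T cell identity, had 0 UMIs in all 4 libraries, and cd28, itk, il7r, lat and gata3 had at most 3.72 CPM. The T cell receptor gene trac was listed but not found by its symbol, so it has no value and took no part in the exclusion of T cell markers. tnfrsf9b, a costimulatory receptor also known as CD137 in mammals, was 68.3, 83.8, 48.3 and 181 CPM, cd4-2.2, a second cd4 gene, had 13, 3, 1 and 1 UMIs, and foxp3a, a regulatory T cell factor, had 7 UMIs at 4 dpw and 0 elsewhere. Of 5 tested T cell markers only cd8a passed, with a list median of 0.56, beside 105 of 5870 genes (1.79%) higher over all genes. cd8b, the partner chain, was 60.4, 11.2, 1.86 and 13.4 CPM in members and 34.1, 0.643, 3.15 and 9.41 CPM in cd4-1-zero cells (log2 fold change 1.13, SE 0.61, adjusted p = 0.344), and ccr9a, a receptor of the chemokine ccl25, was 920.3, 443, 379 and 803 against 488, 367, 337 and 471 CPM (adjusted p = 0.109).

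Of the other leading genes, itga3a, the alpha 3 integrin subunit, which binds laminins, was at 69.5, 46.5, 29.7 and 40.1 CPM in members and 22.0, 6.49, 8.59 and 11.5 CPM in cd4-1-zero cells (log2 fold change 2.04, SE 0.28, adjusted p = 0.0192, edgeR), with every member value above every cd4-1-zero value. cnr2, the cannabinoid receptor of immune cells in mammals, was 69.5, 46.5, 44.6 and 93.7 against 38.06, 12.3, 12.97 and 15.2 CPM (1.67, SE 0.28, adjusted p = 0.027), also without overlap. dnase1l4.1, of the DNase I family, was 123, 114, 63.2 and 147 against 55.4, 28.1, 17.7 and 38.7 CPM (1.69, SE 0.19, adjusted p = 0.0111), and every member value was higher. It was 1 of the 3 genes that were called higher without the 6 dpw library, with BX323596.1 and lgals3bpb, so cd8a, itga3a and cnr2 did not pass there.

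The remaining leading genes of the rule for names were fxyd6l, which belongs to a family of ion pump regulators, klf11a, a zinc finger transcription factor, and the sparsely annotated genes BX323596.1, si:ch211-165d12.4, FQ311879.1 and si:dkeyp-1h4.6, besides 2 with clone names only. Their log2 fold changes ran from 1.45 (klf11a) to 2.13 (BX323596.1), and their adjusted p-values in the edgeR test from 0.0165 to 0.0397. FQ311879.1 was 411, 432, 277 and 589 CPM in members and 253, 64.7, 106 and 164 CPM in cd4-1-zero cells, 1.62-fold (1.40 to 1.88) in unwounded skin. It was at most 0.798 CPM in keratinocyte, T cell, fibroblast and neutrophil gate cells, so it was shared by both groups of the macrophage gate. si:ch211-165d12.4 was 563, 257, 175 and 254 CPM in members but 672 to 991 CPM in T cell gate cells and 120 to 796 CPM in neutrophil gate cells.

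Among cytokines and chemokines, 1 gene of each list was higher, beside 105 of 5870 (1.79%) over all genes. il12bb, the subunit that interleukin 12 and interleukin 23 share in mammals, was 109, 70.8, 79.9 and 221 CPM in members and 88.1, 16.2, 22.6 and 61.2 CPM in cd4-1-zero cells (log2 fold change 1.46, SE 0.30, adjusted p = 0.0435, edgeR). In unwounded skin the ratio was 1.24 (0.944 to 1.63) and did not exceed counting error, whereas in the wounds it lay between 3.54 and 4.37. Over all libraries il12bb was found in 36.3% of cd4-1-zero cells with si:dkey-30j10.5 and in 2.83% of those without it. The share of cd4-1-zero cells with si:dkey-30j10.5 was larger in unwounded skin than in the wounds, and its part in these ratios was not tested. The other 9 tested genes of the inflammatory list did not pass, and its median was -0.69. cxcr3.2, a receptor that steers zebrafish macrophages to CXCL11-type chemokines, was 407, 266, 188 and 301 against 236, 118, 139 and 157 CPM (0.81, SE 0.15, adjusted p = 0.0357), and the other 14 chemokine and receptor genes did not pass.

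On the lower side, apoeb, an apolipoprotein E gene, was 149, 721, 1088 and 140.5 CPM in members and 1025, 5229, 3017 and 2554 CPM in cd4-1-zero cells (log2 fold change -2.73, SE 0.34, adjusted p = 0.0165, edgeR). fabp11a, a fatty acid carrier, was 151, 2177, 576 and 140.5 against 1132, 18392, 2229 and 3427 CPM (-3.03, SE 0.33, adjusted p = 0.0111). g0s2, an inhibitor of fat droplet lipolysis in mammals, had 0, 3, 2 and 0 UMIs in members against 26.0, 1390.2, 164 and 619 CPM in cd4-1-zero cells. At 2 dpw the ratio of g0s2 was 0.00402 (0.000829 to 0.0117), and its fitted log2 fold change of -7.49 (SE 0.39, adjusted p = 0.000272) depends on how the empty libraries are treated. fabp7b, another fatty acid carrier, which was picked after its values were seen, did not pass and had the other sign (log2 fold change 1.61, SE 0.35, adjusted p = 0.0515).

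The same direction was seen for apoc1, an apolipoprotein C-I gene, at 3.42, 29.8, 283 and 20.1 against 347, 825, 884 and 719 CPM (-3.90, SE 0.65, adjusted p = 0.027, edgeR), and for cidec, a fat droplet protein in mammals (-3.33, SE 0.39, adjusted p = 0.0123). gda, a guanine deaminase, was 3.42, 24.2, 31.6 and 46.8 against 72.8, 313, 254 and 402 CPM (-3.46, SE 0.22, adjusted p = 0.000676), with every member value below every cd4-1-zero value. hamp, the iron hormone hepcidin, and gpc1b, a glypican, were lower as well, with log2 fold changes of -3.33 (SE 0.50, adjusted p = 0.0233) and -2.48 (SE 0.25, adjusted p = 0.0106). Of the lower leading genes, sb:cb1058, which has no annotated role here, was the lowest after g0s2 (-4.09, SE 0.35, adjusted p = 0.00321).

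Some of the lower genes had high levels in other gates. muc5.2, a mucin, stood at 245 to 560 CPM in keratinocyte gate cells, and mmp9, a matrix protease, at 3867 to 4809 CPM in neutrophil gate cells. Both were lower in members (log2 fold change -3.39, SE 0.60, adjusted p = 0.0297 for muc5.2 and -3.09, SE 0.60, adjusted p = 0.0371 for mmp9, edgeR), and so were chia.6, a chitinase, BX908782.2, thy1, a surface glycoprotein, and si:dkey-27h10.2, with log2 fold changes of -2.94, -3.22, -2.47 and -2.38. The muc5.2 ratio was 0.0455 in unwounded skin and 0.271 at 2 dpw. At 4 and 6 dpw it was 0.643 (0.0748 to 2.51) and 0.640 (0.0154 to 4.00), which did not exceed counting error. Members held 0, 8, 0 and 0 UMIs of mmp9, and its interval in unwounded skin reached 1.18. Of 8 tested keratinocyte markers krt97 was lower (-2.22, SE 0.26, adjusted p = 0.0123), 7 did not pass, and the list median was -1.20. Of 4 tested neutrophil markers mmp9 and lect2l were lower, at a median of -1.28, and the defining genes lyz and npsn had 0 UMIs in members. Over all genes 85 of 5870 (1.45%) were lower. The summed keratinocyte markers were 2094, 464, 5074 and 863 CPM in members and 4843, 2200.1, 2518 and 2990 CPM in cd4-1-zero cells, and the summed fibroblast markers 55.8, 1329, 3817 and 87.0 and 336, 448, 2703 and 2059.5 CPM. At 4 dpw, where both sums were highest in members, 1 member had over 1% of its UMIs from keratinocyte markers and 3 had over 1% from fibroblast markers. Without the cells above 1% in either group, an alternative added after seeing the data, 144 genes were higher and 130 lower.

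Most genes of the general macrophage list did not pass, and neither did 5680 of all 5870 tested genes. Of 16 tested, lgals3bpb, a secreted binding partner of galectin 3, was higher at 1997, 2696, 1385 and 1171 CPM in members and 973, 751, 614 and 492 CPM in cd4-1-zero cells (log2 fold change 1.30, SE 0.14, adjusted p = 0.0111, edgeR), apoeb was lower and 14 did not pass. marco, a scavenger receptor, was 1401, 1493, 1207 and 1371 against 1195, 1294, 1272 and 1068 CPM (0.15, SE 0.10, adjusted p = 0.436). cxcl19, a chemokine gene, was 4967, 6772, 2276 and 6930.3 against 5382, 2997, 3879 and 10744 CPM (-0.12, SE 0.29, adjusted p = 0.882), higher in members at 2 dpw and lower in the other 3 libraries. mrc1b, a mannose receptor, was 71.8, 203, 245 and 341 against 234, 448, 529 and 331 CPM (-1.02, SE 0.25, adjusted p = 0.0642), and it passed as lower when 6 dpw was left out (-1.32, adjusted p = 0.0425 in edgeR), with at least 2 cd4-1 UMIs (-2.64, adjusted p = 0.0109 in edgeR) and with DESeq2 (-1.03, adjusted p = 0.00767), but not when any other library was left out, nor after thinning (-0.66, adjusted p = 0.173 in edgeR). mrc1b also passed as lower with no filter on low counts (-1.13, adjusted p = 6.2e-10 in edgeR). The same held without cells over the keratinocyte and fibroblast limit (-1.02, adjusted p = 0.0349 in edgeR). Without cells holding T cell markers, cd8a among them, the log2 fold change of mrc1b was -0.26 (adjusted p = 0.88 in edgeR). With cd8a not counted among these markers it was -0.94 (adjusted p = 0.0633 in edgeR).

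None of 14 tested regulators of dendritic and Langerhans cells passed, and the median of that list was 0.18. Over all genes 5680 of 5870 did not pass, so an absence of calls in this and the other short lists below says little about them. spi1b, a PU.1 factor of the myeloid lineage, was 1034, 1005, 989 and 1097 CPM in members and 1006, 1089.8, 853 and 1153 CPM in cd4-1-zero cells (log2 fold change -0.01, SE 0.09, adjusted p = 0.991, edgeR), irf8, which macrophages and dendritic cells need, was 51.3, 87.5, 70.6 and 46.8 against 44.7, 56.1, 80.8 and 55.9 CPM, and runx3, which mouse Langerhans cells need, was 172, 123, 78.1 and 174 against 87.5, 48.0, 76.9 and 200.2 CPM (0.56, SE 0.27, adjusted p = 0.288). The groups overlapped for all 3 genes. None of 10 interferon response genes, 17 immediate-early and stress genes and 4 cell cycle genes passed either, at medians of 0.34, -0.06 and -0.08, and none of 7 epidermal adhesion genes, at a median of -0.90.

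Members differed among themselves. The division by si:dkey-30j10.5 below was chosen after the values were seen, so it is a description with no test. Of the 132 members with si:dkey-30j10.5, 4 (3.03%, 0.832 to 7.58) had a UMI of mrc1b, whereas 39 of the 61 members without it (63.9%, 50.6 to 75.8) did. For cd8a the numbers were 82 of 132 (62.1%, 53.3 to 70.4) and 2 of 61 (3.28%, 0.400 to 11.3). For il12bb they were 64 of 132 and 2 of 61, and for fabp7b, a fatty acid carrier, 123 of 132 and 12 of 61. Median depth was 10204.5 UMIs with si:dkey-30j10.5 and 10065 without it, so the shares compare cells of like depth. Each of cd8a, il12bb and fabp7b was thus found more often with si:dkey-30j10.5 and mrc1b more often without it, and joint detection of more than a pair of genes was not counted.

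The levels showed the same division in every library. In members with si:dkey-30j10.5, mrc1b was at 0, 22.7, 6.64 and 0 CPM, and in members without it at 302, 712, 549 and 834 CPM. mhc2b was at 1711, 641, 724 and 1528 CPM with and 604, 56.9, 144 and 409 CPM without si:dkey-30j10.5, and cxcl19 at 6287, 8518, 3691 and 11718 and 733, 1843, 477 and 16.3 CPM. mhc2b and cxcl19 were thus on the side of si:dkey-30j10.5. Summed over libraries, which mixes classes of unequal library makeup, lgals3bpb was 2541 CPM with and 655 CPM without it and mpeg1.1 2372 and 808 CPM, while marco (1221 and 1715 CPM) and the complement gene c1qb (1229 and 1934 CPM) were on the other side.

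The cd4-1-zero cells divided in the same way. Of these, 449 of 2252 (19.9%) had si:dkey-30j10.5, and mrc1b was found in 47 of those 449 and in 1222 of the other 1803. Within cells with si:dkey-30j10.5, cd74a was at 20845, 12926, 16612 and 32029 CPM in members and 16582, 4716, 10569 and 14321 CPM in cd4-1-zero cells, and mhc2b at 1711, 641, 724 and 1528 CPM in members and 1077, 244, 406 and 765 CPM in cd4-1-zero cells. Both were higher in members of each library. fabp11a was at 152, 905, 741 and 226 CPM in members and 488, 3468, 2995 and 1589 CPM in cd4-1-zero cells, and cxcl19 at 6287, 8518, 3691 and 11718 CPM in members and 10339.5, 8771, 15460 and 23867 CPM in cd4-1-zero cells, both lower in members of each library.

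**Figure D3:**
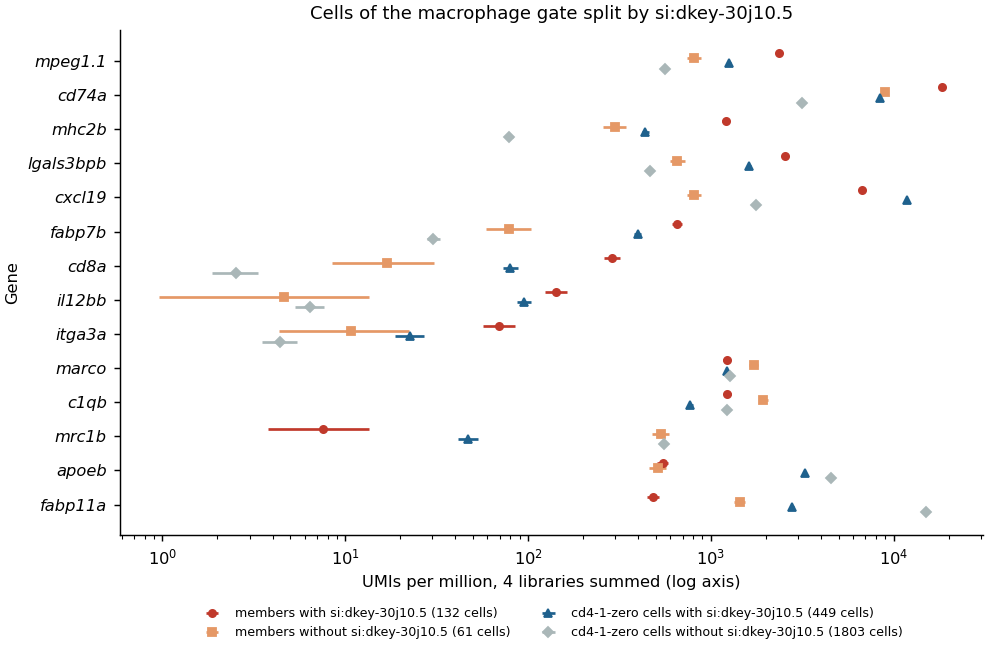
Points are CPM (UMIs per 1000000 over the 4 libraries summed, log axis) of 14 genes in members with (132 cells) and without (61 cells) si:dkey-30j10.5 and in cd4-1-zero cells with (449) and without it (1803), with exact 95% Poisson intervals. The 4 libraries give unequal shares of each class (60 of the 132 cells are from unwounded skin, 237 of the 449 from 2 dpw), so the points mix library and class. Members with si:dkey-30j10.5 are highest for cd74a, mhc2b, cd8a and il12bb, and mrc1b is at 7.56 CPM there against 531 CPM in members without it.

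The number of cd4-1 UMIs of a cell depends on its depth and its library as well as on the level, so levels by this number are description. Of the 109 members with 1 cd4-1 UMI, 31 were from unwounded skin and 39 from 4 dpw, and of the 18 with 5 or more, 12 and 1. In cells of the gate with 0, 1, 2, 3 to 4 and 5 or more cd4-1 UMIs (2252, 109, 35, 31 and 18 cells), si:dkey-30j10.5 was 569, 3165, 3580.4, 5421 and 4772 CPM over all libraries and 2362, 3486, 3598, 4742 and 5578 CPM in unwounded skin alone. mrc1b was 445, 254, 126, 30.6 and 0 CPM over all libraries and 234, 70.2, 154, 47.8 and 0 CPM in unwounded skin alone, where the order was not steady. il12bb showed no order among members, at 25.5, 102, 91.7, 97.8 and 107 CPM, nor did marco, at 1266, 1461, 1160.4, 1555 and 1017 CPM. The median depth of the 5 classes was 10502, 9969, 11070, 9970 and 11330 UMIs.

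The last comparison set the members of each wound library against those of unwounded skin. As a summed level mixes members with and without si:dkey-30j10.5, fewer cells of one kind and less RNA per cell cannot be told apart in it. si:dkey-30j10.5 in members was 1.14-fold (1.09 to 1.20) its unwounded level at 2 dpw, 0.550-fold (0.516 to 0.587) at 4 dpw and 0.690-fold (0.623 to 0.763) at 6 dpw, whereas in cd4-1-zero cells it was 0.169, 0.219 and 0.299-fold. The summed MHC class II and antigen processing list was 0.831, 0.760 and 1.11-fold in members and 0.553, 0.647 and 0.899-fold in cd4-1-zero cells. Each ratio was thus higher in members than in the other cells of the gate, and the difference was not tested, since each condition is 1 library. The same mixing holds for the cd4-1-zero cells. They numbered 141 in unwounded skin and 1283 at 2 dpw, and 41.8% and 18.5% of them had si:dkey-30j10.5. A lower summed level there cannot be told apart from a larger share of other cells.

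Of 1917 genes that reached 50 UMIs in the members of unwounded skin or 2 dpw, 85 (4.43%) were over 2-fold higher at 2 dpw and 94 (4.9%) over 2-fold lower. At 4 dpw 104 of 1937 (5.37%) were higher and 130 (6.71%) lower, and at 6 dpw 34 of 1869 (1.82%) and 148 (7.92%). The median ratio of all these genes was 0.977, 0.948 and 0.927. Members summed to 877929 UMIs in unwounded skin and to 537094, 537887 and 149488 at 2, 4 and 6 dpw. The limit of 50 UMIs was thus a lower CPM in unwounded skin than in the wounds, most so against 6 dpw. Lower genes could pass it more easily than higher genes, so the 2 counts of a time cannot be set against each other. Of the higher genes 45, 68 and 9, and of the lower genes 56, 54 and 85, were found in at least 10% of members but had a higher level in the keratinocyte, fibroblast, T cell or neutrophil gate of the library where they were higher. Summed fibroblast markers in members were 23.8-, 68.4- and 1.56-fold their unwounded level at 2, 4 and 6 dpw, erythrocyte markers 7.89-, 3.02- and 4.69-fold, and keratinocyte markers 0.221-, 2.42- and 0.412-fold. Without the members over 1% keratinocyte or fibroblast UMIs, 74, 64 and 32 genes were higher and 72, 109 and 127 lower. Without the haemoglobin, mitochondrial and ribosomal protein genes, 82, 102 and 35 were higher and 95, 121 and 148 lower. Members with erythrocyte RNA were not left out, so its part in other genes was not tested. In a further setting, the member with the most UMIs of each gene was left out of each library. There 53, 56 and 9 genes were higher and 89, 153 and 273 lower at 2, 4 and 6 dpw. That member is 1 of 79 in unwounded skin but 1 of 19 at 6 dpw, and the UMI totals were kept. The setting thus lowers ratios by itself, most at 6 dpw, so these counts do not measure the part of single cells.

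Among the genes with the largest ratios to unwounded skin, fabp11a was 151, 2177, 576 and 140.5 CPM in members, 14.4-fold at 2 dpw, and was found in 32.9% of members in unwounded skin and 80.9% at 2 dpw. In cd4-1-zero cells the same ratio was 16.2-fold. plin2, the coat protein of fat droplets, was 45.6, 290.5, 145 and 134 CPM, 6.37-fold (4.48 to 9.26) at 2 dpw. lpl, the lipase of circulating triglycerides, was 9.11, 89.4, 94.8 and 301 CPM, 10.4-fold (4.90 to 25.4) at 4 dpw and above unwounded skin in all 3 wounds. apoc1 had 3 UMIs in unwounded skin and 152 at 4 dpw, 82.7-fold (27.8 to 405), in 14.6% of members. fabp11a and apoc1 were at the same time lower in members than in cd4-1-zero cells of each wound.

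Some of the higher genes rested on few cells. f13a1a.1, the coagulation factor XIII A subunit, had 0 UMIs in unwounded skin and 262 at 2 dpw in 12.8% of members. This was 143-fold with the floor of 3 UMIs in place of 0 (exact lower limit 115), and 2.72-fold without the member with the most UMIs. si:dkey-7i4.24 had 0 UMIs in unwounded skin and 54 at 4 dpw, 29.4-fold with that floor (exact lower limit 23.1), and 15.8-fold without the member with the most UMIs. gdpd3b, a lipid phosphodiesterase family gene, and si:dkey-187j14.7 were 6.54-fold (3.74 to 12.1) and 5.60-fold (3.41 to 9.60) at 2 dpw. They were found in 17.0% and 53.2% of members there, and their ratios in cd4-1-zero cells were 0.317- and 5.46-fold. cd9b, a tetraspanin, was 178, 784, 794 and 301 CPM, and si:ch211-165i18.2 was 4.45-fold (3.13 to 6.44) at 4 dpw. At 4 dpw these 2 genes were found in 77.1% and 37.5% of members. cd9b was thus higher in each wound.

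At 6 dpw, where 19 members were sampled, hspa5, the chaperone BiP of the endoplasmic reticulum, was 575, 1290.3, 1219.6 and 1960 CPM over the 4 libraries, 3.41-fold (2.94 to 3.94) and found in every member. It was higher in all 3 wounds, and in cd4-1-zero cells the ratio at 6 dpw was 2.11-fold. tfec, a transcription factor of the MITF family, was 57.0, 173, 106 and 301 CPM, 5.29-fold (3.45 to 8.07) at 6 dpw. mrc1b, xkr8.2 and vcanb, a versican gene, were 4.75-, 4.58- and 3.33-fold at 6 dpw. They were 2.28-, 2.29- and 2.39-fold without the member with the most UMIs of each, a setting that lowers ratios at 6 dpw by itself. With at least 2 cd4-1 UMIs, mrc1b and vcanb were 0.630- and 0.416-fold, on the other side of unwounded skin.

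The nuclear receptor genes nr4a1 and nr4a2b were on the lower side at 2 and 4 dpw. nr4a1, an orphan nuclear receptor induced in minutes by many signals, was 421, 96.8, 216 and 234 CPM in members, 0.230-fold (0.168 to 0.308) at 2 dpw, and 0.207-fold in cd4-1-zero cells. Its relative nr4a2b had 70 UMIs in unwounded skin and 1 at 2 dpw, 0.0234-fold (0.000583 to 0.134). At 4 dpw nr4a2b had 0, which was 0.0700-fold with the floor of 3 UMIs in place of 0 (exact upper limit 0.0883). At 6 dpw it was at 60.2 CPM against 79.7 CPM in unwounded skin. nr4a2b was thus low at 2 and 4 dpw and near its unwounded level at 6 dpw. Of the 17 immediate-early and stress genes as a whole, which include nr4a1 but not nr4a2b, 15 had 50 UMIs in either library. Of these, 3, 2 and 0 were over 2-fold lower and 1 higher at each time. Over all genes 4.9%, 6.71% and 7.92% were lower and 4.43%, 5.37% and 1.82% higher. The summed list was 0.962-, 0.882- and 1.05-fold its unwounded level.

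Further lower genes differed by time. At 2 dpw these were tmem256, si:ch211-212g7.6 and n4bp1, a regulator of inflammatory signalling in mammals, at 0.208-, 0.215- and 0.215-fold. At 4 dpw s1pr1, the receptor by which lymphocytes leave tissues, had 0 UMIs against 51, lacc1, an enzyme of macrophage metabolism in mammals, was 188, 188, 26.0 and 114 CPM over the 4 libraries, and prdm1b, a Blimp1 family repressor, was 87.7, 78.2, 16.7 and 73.6 CPM, both lowest at 4 dpw. irgq1 was 0.267-fold (0.116 to 0.545). At 6 dpw id2b, an inhibitor of basic helix-loop-helix factors, had 1 UMI against 186, 0.0316-fold (0.000795 to 0.178), while hpse, a heparan sulfate-cleaving enzyme, n4bp1, zgc:110591 and vaspb, an actin regulator, were 0.205- to 0.249-fold on 3 to 6 UMIs each. With so few UMIs the intervals are wide, from 0.0493 to 0.744 for zgc:110591.

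**Figure D4:**
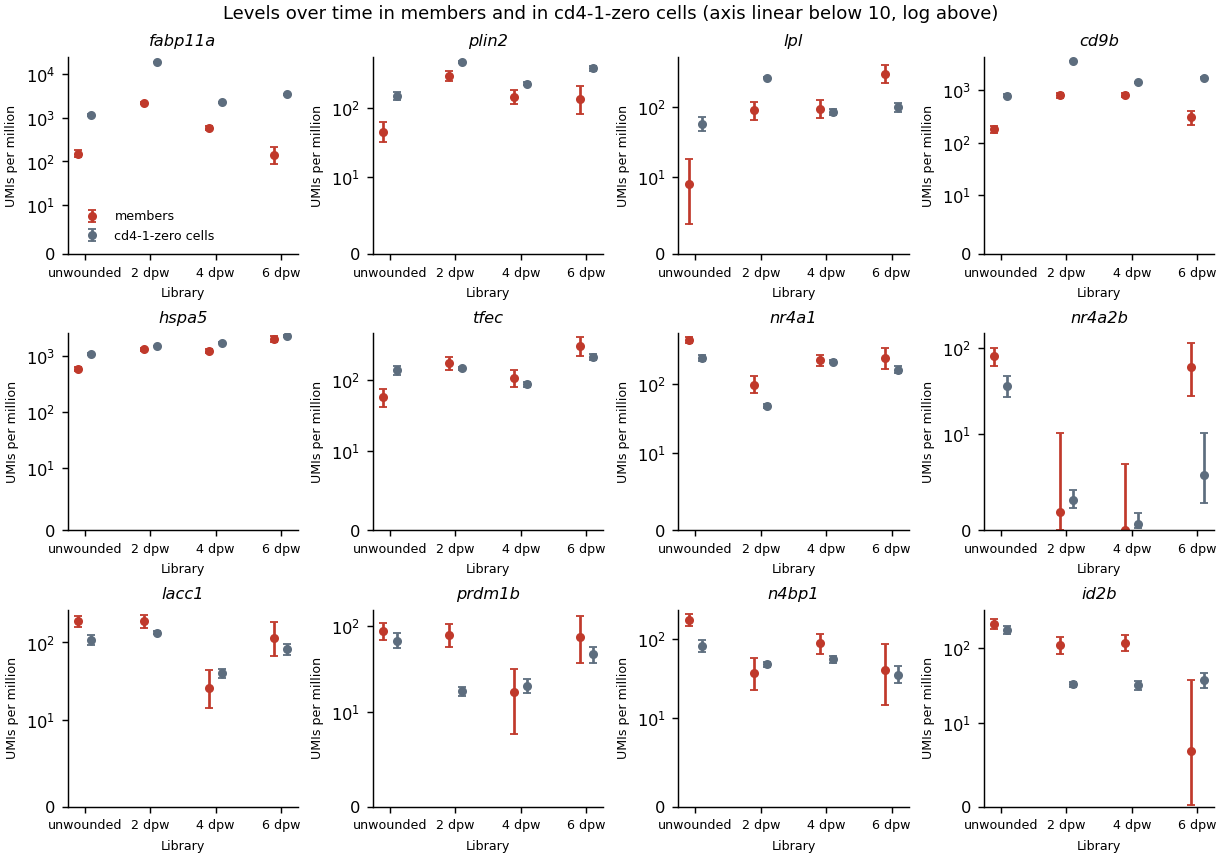
Points are CPM (UMIs per 1000000, axis linear below 10 and log above) of 12 genes in members (red) and cd4-1-zero cells (blue-grey) of each library, with exact 95% Poisson intervals. fabp11a peaks at 2 dpw in both groups, hspa5 is higher in all 3 wounds, and nr4a2b is at or near 0 at 2 and 4 dpw. At 6 dpw nr4a2b is at 60.2 CPM (27.5 to 114) in members and 5.75 CPM in cd4-1-zero cells.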

How the data were processed

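Skin cells of 4 libraries (unwounded, 2, 4 and 6 dpw, 1 library each) were measured by droplet 3' single-cell RNA sequencing. The authors deposited matrices of whole-number UMI counts per gene and cell, made with Cell Ranger 6.1.2; the submitters' processing notes also name Seurat 4.3.0 and GRCz11. No cell annotation was used. The files held 25432 genes, of which 23608 IDs matched the gene name table. Symbols were taken from the files, and 1244 symbols name 2 or more genes.

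Cells with 500 to 30000 UMIs, 200 to 4500 genes and under 25% mitochondrial UMIs were kept, giving 43307637 to 56867519 UMIs per library, and gated by transcripts. No doublet caller was run. The members and lists were chosen with earlier results of these data known. UMIs were summed per library over members and over cd4-1-zero cells and tested with edgeR 4.0.16 in R 4.3.3 (quasi-likelihood test, TMM, filterByExpr with a minimum count of 10, library as block, 4 pairs, residual df 3, Benjamini-Hochberg adjustment, threshold 0.05). Both sums of a pair come from the same library, so the pairing is by origin. The p-values measure the spread between these 4 libraries only. Between conditions, CPM ratios were given with exact conditional intervals (95%) and no test. The floor for a count of 0 was 3 UMIs. Shares were thinned to 1000 UMIs per cell. Python 3.11.15, numpy 2.4.6, scipy 1.17.1, pandas 2.3.3 and matplotlib 3.10.9 were used. The edgeR fit was also run on simulated counts with a common dispersion and no library effect. That setting is simpler than the data, so it does not bear on the calls made here.

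Genes were named where they belonged to the lists; where they were among the 15 highest or 15 lowest log2 fold changes past the threshold, with 1 direction in 4 libraries and at least 100 UMIs in either group; or, over time, where they were among the 5 highest or 5 lowest ratios with at least 50 UMIs in either library, found in at least 10% of the members where higher, and not higher in another gate. Haemoglobin, mitochondrial and ribosomal protein genes were not named by rank. Alternatives were DESeq2 1.42.0, RLE factors, no filter, no block, leaving out each library, thinning, other cell limits and cells without T cell markers. Over time, leaving out the haemoglobin, mitochondrial and ribosomal protein genes was a further alternative. Those restricted to cells with si:dkey-30j10.5, to cells under 1% keratinocyte or fibroblast UMIs, and to cells without T cell markers other than cd8a were chosen after seeing the data.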

Additional observations from a re-analysis of the deposited data

How the results depend on the processing

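Depth and the number of pairs limit these results: 6 dpw gave 19 members, over 1 in 2 members rests on a single cd4-1 UMI, and 4 pairs carry every test. The share of members relative to unwounded skin was 0.296 at 2 dpw and 0.149 at 4 dpw with at least 2 cd4-1 UMIs, and 0.322 at 4 dpw with the gate applied after thinning, always below 1. Of the genes higher and lower in members (105 and 85), DESeq2 called 189 and 161, and no filter on low counts 195 and 477. Without the replicate block, that is without pairing the sums of a library, the numbers were 1 and 1. Leaving out 1 library gave 3 to 47 higher and 13 to 77 lower genes, fewest higher without 6 dpw. With at least 2 cd4-1 UMIs 52 were higher and after thinning 33 were lower. Without cells with T cell markers, cd8a among them, 5 were higher and 15 lower, and with cd8a not counted 108 were higher and 83 lower. Without cells over the keratinocyte and fibroblast limit 130 were lower, and among cells with si:dkey-30j10.5 only 2 and 7 were called. The log2 fold change of si:dkey-30j10.5 was 1.81 without the replicate block, 1.37 without cells with T cell markers, and 1.63 to 2.57 on leaving out 1 library. It was found in 68.4% of members without thinning and in 49.2% at 500 UMIs.

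Over time, thinning left 4, 4 and 3 genes over 2-fold higher and 9, 14 and 12 lower at 2, 4 and 6 dpw, and a minimum of 20 UMIs gave 228, 254 and 118 higher and 312, 336 and 274 lower. Without the member with the most UMIs of each gene 53, 56 and 9 were higher and 273 lower at 6 dpw. That setting lowers ratios by itself, most at 6 dpw. With at least 2 cd4-1 UMIs 32 and 31 were higher at 2 and 4 dpw, and without cells over the keratinocyte and fibroblast limit 64 were higher at 4 dpw. Single ratios that crossed 1 after thinning were tmem256 at 2 dpw (1.68), si:ch211-165i18.2 at 4 dpw (0.988), and zgc:110591 (1.56) and vaspb (1.25) at 6 dpw, and with at least 2 cd4-1 UMIs mrc1b (0.630) and vcanb (0.416) at 6 dpw. The cause was not tested for any of these, other than that thinning, stricter limits and fewer libraries leave fewer UMIs, cells or pairs.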

Other observations

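A second way of sorting the members, by cxcl19 (at least 50 per 10000 UMIs) and mrc1b, is given as values only. Of the 193 members, 52 (26.9%) were high in cxcl19, 42 (21.8%) had mrc1b with low cxcl19, and 99 (51.3%) had neither. In cd4-1-zero cells these classes held 17.0%, 54.1% and 28.9%. These pooled shares mix libraries of unequal makeup. The class with neither was the most frequent among members of each library. Among cd4-1-zero cells the mrc1b class was the most frequent in each wound. In unwounded skin, however, the class with neither was the most frequent there too, at 44.0% against 34.8% with mrc1b. mki67, a marker of dividing cells, was found in 2.53%, 2.13%, 2.08% and 0% of members (unwounded, 2, 4 and 6 dpw) after thinning to 1000 UMIs.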
